A study of Mus musculus with 30 samples.

Results

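The sarcomeric myosin heavy chains are the motor proteins of the thick filament in striated muscle. The 10 genes followed here are Myh1, Myh2, Myh3, Myh4, Myh6, Myh7, Myh7b, Myh8, Myh13 and Myh15, out of 19938 genes with a transcript cluster of their own on the array. They were chosen by name: a transcript cluster, which is the array's unit of measurement for a gene, was taken where its annotation carried exactly 1 symbol and that symbol was a member. All 10 members had 1 such transcript cluster each, so none had to be chosen among several.

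The signals came from mouse sclera, the fibrous outer coat of the eye. The 30 Mouse Gene 1.0 ST arrays each held the RNA of 1 sclera from 1 mouse. The mice were Balb/cJ, which is an inbred albino strain, and belonged to 1 family. There were 6 mice of each postnatal age, namely 1, 2, 3, 6 and 8 weeks, with no treatment and no genetic change. Their sex was not stated.

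In mammals a muscle fibre is typed largely by the heavy chain it holds. Myh3 and Myh8 encode the embryonic and the neonatal chain, which usually give way after birth to the adult chains. Myh4, Myh1 and Myh2 encode the fast chains IIb, IIx and IIa, and Myh7 encodes the slow chain, which is shared with the heart. Myh6 is the cardiac alpha chain. The muscles that move the eye insert on the sclera and are unusual in that, besides all of these types, they use the extraocular chain of Myh13 and the slow-tonic type chains of Myh7b and Myh15, and keep developmental chains into adult life.

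In the RefSeq annotation of the mouse genome, Myh3, Myh2, Myh1, Myh4, Myh8 and Myh13 follow each other in this order on chromosome 11. Myh6 and Myh7 neighbour each other on chromosome 14, whereas Myh15 is on chromosome 16 and Myh7b on chromosome 2. Promoter windows around the start of each gene were found for all 10 members. The windows of the fast genes Myh1, Myh2 and Myh4 and of the neonatal gene Myh8 shared an unbroken run of 14 bases, the longest that these 4 windows have in common. These 4 genes were called lower in week 2 versus 1 and higher in week 6 versus 3. Myh3 and Myh15 were called likewise in both comparisons and lack the run. Whether the run bears on the signals was not tested. On the plus strand of chromosome 11 in build GRCm38.p6, with the shared run in capitals at the end, the stretches from these 4 windows read as follows.
Myh2, chr11:67170854-67170915: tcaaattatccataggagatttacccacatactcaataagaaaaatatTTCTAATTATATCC
Myh1, chr11:67199886-67199955: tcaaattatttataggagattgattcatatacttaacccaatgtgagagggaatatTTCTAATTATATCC
Myh4, chr11:67237625-67237667: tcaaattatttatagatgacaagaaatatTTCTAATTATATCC
Myh8, chr11:67277020-67277083: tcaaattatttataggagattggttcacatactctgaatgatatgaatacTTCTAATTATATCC

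The run ended 112 bases before the start of Myh2, 147 before Myh1, 145 before Myh4 and 41 before Myh8. On either strand it occurred in 4 of the 32851 promoter windows of the table (0.0122%), and these 4 were the genes from which it was taken. A site of the muscle factor family MEF2 lay in the windows of Myh1, Myh4 and Myh8, and in 3.19% of all windows. The E-box CANNTG, the recognition sequence of the MyoD family, lay in those of 8 members and in 72.3% of all windows, and TATAAA in those of 7 members and in 13.6%. All motifs were searched on both strands. A match describes these letters only and says nothing of whether a factor binds there.

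The values are the log2 signals that the authors deposited, and 1 unit on this scale is a doubling. Probes of different genes differ in brightness, so a gene's signal was compared between ages and not with that of another gene. Over all genes, arrays had median signals of 6.15 to 6.37 on this scale. The mean of 10 fibroblast and matrix genes of the sclera stayed between 8.81 and 11.02 on every array, with Col1a1 at 13.01 in week 1. Of striated muscle, 8 general sarcomere genes (Acta1, Ttn, Neb, Des, Actn2, Ldb3, Myom1 and Tcap) had a mean between 5.997 and 10.72 on an array, which was above the median of all transcript clusters (6.23) on all but 1 array, week 3 replicate 6.

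The deposited arrays were not all free to vary. Week 2 replicate 4 equalled the mean of its week on all 35556 transcript clusters, to within 6.67e-05. Week 6 replicates 4 and 6 averaged to the mean of their week to within 5e-05. On every other array some transcript cluster lay at least 1.588 from its week mean. The deviations from the week means therefore had 23 independent directions, where the fit counts 25 residual degrees of freedom, and the SDs and p-values below are somewhat too small. With a term for week 2 replicate 4 and another for week 6 replicates 4 and 6, the fold changes stayed as they were and every call of the 10 members in the 6 comparisons was kept. The methods name a removal of scan-date effects, but no array's scan date was known here, and whether this removal set these values was not tested.

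Differences between ages were tested with limma in 1 fit of all arrays and all transcript clusters, with p-values adjusted by the method of Benjamini and Hochberg within each comparison. A gene was called where its signal differed by a fold of at least 2 at an adjusted p of 0.05 or less. Each week had n = 6 mice. No measure of background per probe was used here, so the level at which a probe set detects nothing is not known. In week 2, 6 of the 10 members averaged below the median of all transcript clusters (6.23), and in week 3 all but Myh4 did. The sizes of changes that involve these weeks are therefore uncertain, more so than their directions. Fewer muscle cells and less RNA per cell cannot be told apart in such bulk tissue. The probe sequences were not used here, and the heavy chains resemble each other closely, Myh1, Myh2, Myh4 and Myh8 above all, so the share of a signal that comes from a neighbouring gene is uncertain.

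Between weeks 1 and 2 the fast and the developmental heavy chains fell together, whereas the slow and cardiac chains, which had low signals, were not called. In week 2 versus 1, 6 of the 10 members were called lower and none higher. Over all transcript clusters 7.73% were called lower. The 6 were Myh1, Myh2, Myh3, Myh4, Myh8 and Myh15, and the week 2 arrays lay below all of the week 1 arrays for each of them, as for 15.5% of all transcript clusters. The median change of the 10 members was -3.29, beside 0.06 for all transcript clusters.

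**Figure D1:**
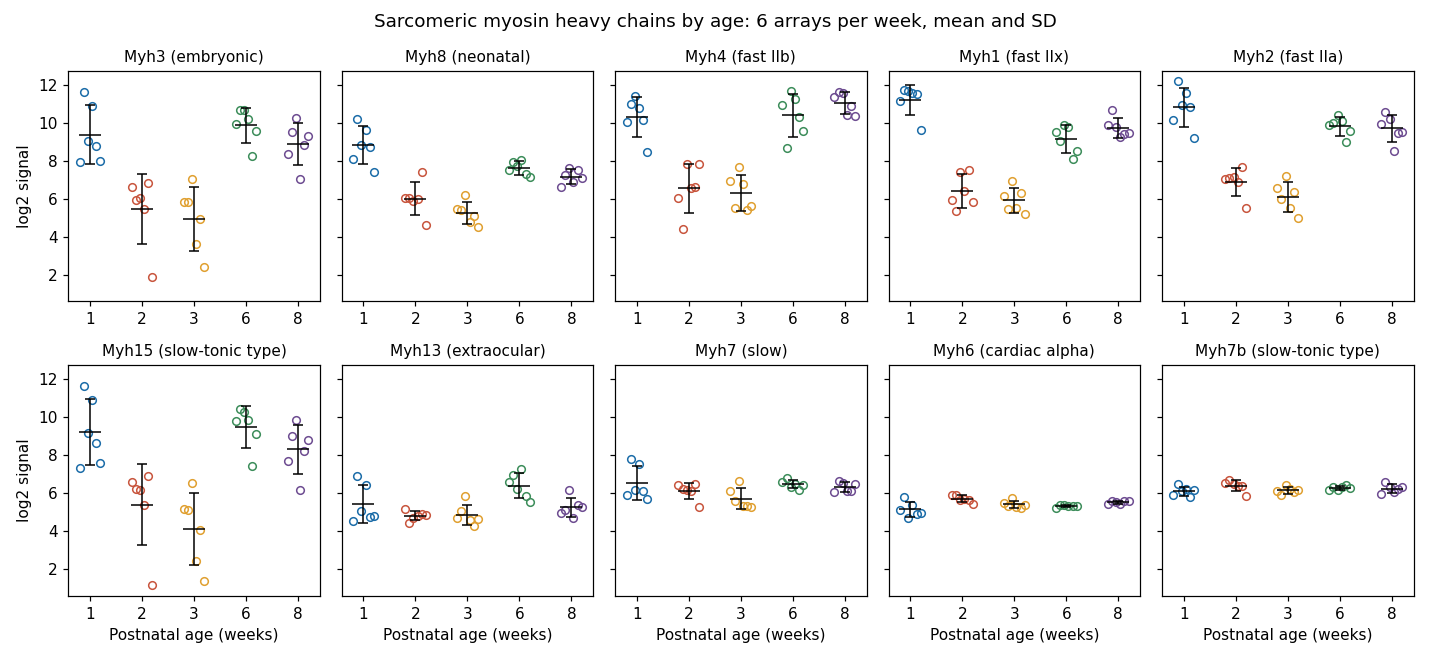
Log2 signal (vertical axis) of each of the 10 myosin heavy chains against postnatal age in weeks (horizontal axis); each circle is 1 of the 6 arrays of a week, with the mean ± SD as bars. Myh3, Myh8, Myh4, Myh1, Myh2 and Myh15 are low in weeks 2 and 3 and high in weeks 1, 6 and 8, Myh13 is highest in week 6, and the week means of Myh7, Myh6 and Myh7b span at most 0.82.

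Myh1, the fast IIx chain, had the largest estimated fall of the members. At these SEs Myh1 was not set apart from Myh2, Myh3, Myh4 and Myh15. Its lowest, median and highest log2 signals were 5.36, 6.16 and 7.51 in week 2, against 9.62, 11.54 and 11.71 in week 1. The means were 6.41 ± 0.88 in week 2 and 11.21 ± 0.80 in week 1 (SD), and the signal was 27.9-fold lower in week 2 (log2 fold change -4.80, SE 0.39, limma adjusted p = 2.4e-10). One week 1 array, replicate 6, was far below the other 5, and it was still above every week 2 array. Myh2, the fast IIa chain, had 5.49, 7.06 and 7.66 in week 2, against 9.21, 10.89 and 12.19 in week 1, and was 15.2-fold lower in week 2. Myh4, the fast IIb chain, had 4.41, 6.59 and 7.84 in week 2, against 8.45, 10.48 and 11.42 in week 1, and was 13.6-fold lower. The 3 fast chains thus left no overlap between these ages.

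The developmental chains took the same course. Myh3 had lowest, median and highest log2 signals of 1.85, 6.01 and 6.82 in week 2, against 7.95, 8.89 and 11.64 in week 1, with a log2 fold change of -3.91 (SE 0.78, limma adjusted p = 8.9e-05). Myh8 had 4.63, 6.03 and 7.41 in week 2, against 7.42, 8.78 and 10.21 in week 1, with a log2 fold change of -2.81 (SE 0.37). The single array at 1.85 for Myh3, week 2 replicate 6 was well below the next array, at 5.95 when replicate 4, the one that equals the week mean, is left aside. Without it the log2 fold change of Myh3 was -3.19, and the call was kept. The spread of whole arrays moved with age as well, with interquartile ranges of 2.22 to 2.56 on the week 2 arrays, against 2.60 to 2.79 on the week 1 arrays. With that range as a covariate the same counts of members were called in week 2 versus 1 and week 6 versus 3.

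Myh15 followed Myh3 in size and in spread. Its log2 signals in week 2 were 1.14, 6.21 and 6.89 (lowest, median, highest), against 7.33, 8.90 and 11.66 in week 1. The fold change was -3.81 on the log2 scale with an SE of 0.91, the widest of the members (limma adjusted p = 0.00058). The other extraocular type chains did not pass the threshold: Myh13 differed by -0.60 (SE 0.35) and Myh7b by 0.29 (SE 0.12). Myh13 and Myh6 were also the members whose mean over all arrays, 5.35 and 5.42, lay below the median of all transcript clusters, 6.23.

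The slow and cardiac chains were not called. Myh7 had 5.26, 6.20 and 6.47 in week 2, against 5.68, 6.14 and 7.79 in week 1, so that the ages overlapped (log2 fold change -0.42, SE 0.29, limma adjusted p = 0.20). Myh6 differed by 0.55 (SE 0.12), which passed the p threshold (limma adjusted p = 0.00029) but was only 1.47-fold. The mean of Myh7 over all arrays, 6.23, was at the median of all transcript clusters, and that of Myh6, 5.42, was below it. Whether signals this low could show a fall was not tested.

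Weeks 2 and 3 were both low. In week 3 versus 2 no member was called by limma, where 4.39% of all transcript clusters were called in either direction, and an unadjusted p under 0.05 was reached by Myh6 and Myh8. The mean of Myh1 was 5.92 ± 0.67 in week 3 and 6.41 ± 0.88 in week 2, that of Myh4 was 6.31 ± 0.95 and 6.54 ± 1.27, and that of Myh3 was 4.93 ± 1.68 and 5.46 ± 1.83 (SD, week 3 first). These differences are smaller than the spread between mice of 1 week. The count depended on 1 array: without week 2 replicate 6, Myh2 (-1.06), Myh8 (-1.05) and Myh15 (-2.14) were called lower in week 3.

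The same chains were high again in week 6. When week 6 was set against week 3, 7 of the 10 members were called higher and none lower, where 3.9% of all transcript clusters were called higher. The 7 were the 6 that had fallen before and Myh13. The median change of the 10 members was 2.80, beside 0.09 for all transcript clusters. For each member but Myh13 among the 7, all week 6 arrays lay above all week 3 arrays, as for 18.9% of all transcript clusters.

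**Figure D2:**
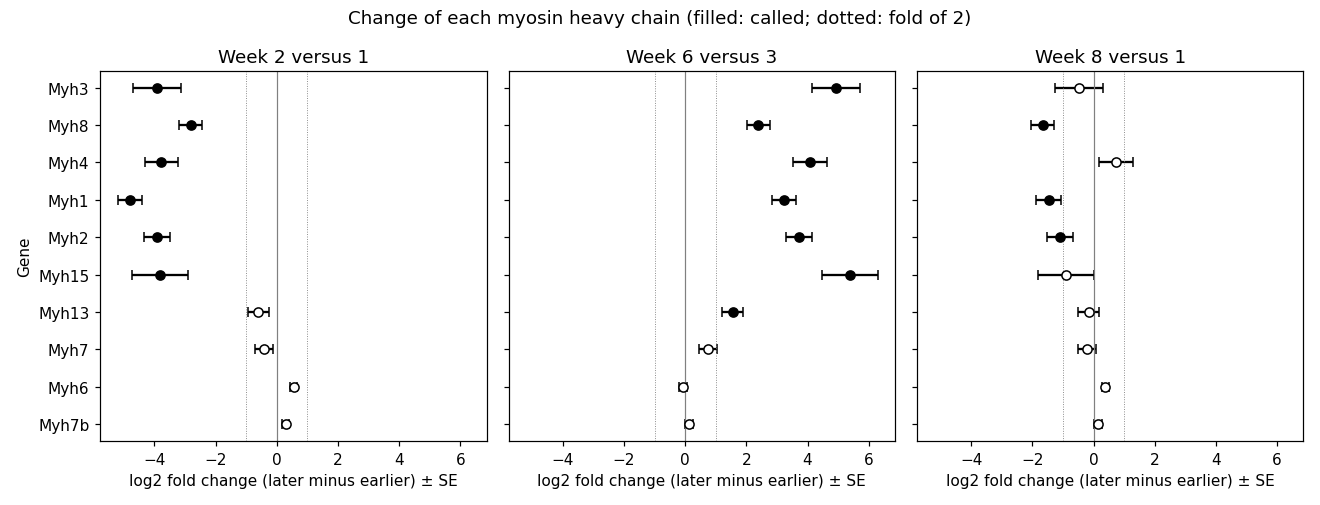
Log2 fold change, later minus earlier week, with its SE (horizontal axis) of each myosin heavy chain (vertical axis) for weeks 2 versus 1, 6 versus 3 and 8 versus 1; filled circles are called and dotted lines mark a fold of 2. The first comparison has 6 members called lower, the second 7 called higher, and in the third only Myh8, Myh1 and Myh2 are called, all lower.

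Myh15 and Myh3 had the largest fold changes. Myh15 had 7.46, 9.84 and 10.44 in week 6 (lowest, median, highest log2 signal), against 1.35, 4.59 and 6.52 in week 3, with a log2 fold change of 5.38 (SE 0.91, limma adjusted p = 1.4e-05). Myh3 had 8.23, 10.07 and 10.67 in week 6, against 2.39, 5.36 and 7.02 in week 3, with a log2 fold change of 4.94 (SE 0.78). Both week 3 means, 4.11 for Myh15 and 4.93 for Myh3, were below the median of all transcript clusters, so these sizes depend on the lowest part of the scale. At their SEs these fold changes do not order Myh15, Myh3 and Myh4 among themselves. Myh4 had 8.67, 10.62 and 11.68 in week 6, against 5.38, 6.19 and 7.69 in week 3, with a log2 fold change of 4.09 (SE 0.55). Myh2 rose by 3.72 (SE 0.42), Myh1 by 3.22 (SE 0.39) and Myh8 by 2.38 (SE 0.37).

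Myh13, the extraocular chain, had 5.53, 6.40 and 7.28 in week 6, against 4.28, 4.67 and 5.84 in week 3, so that the ages overlapped, and its log2 fold change was 1.55 (SE 0.35, limma adjusted p = 0.00043). It was the only member whose mean was highest in week 6 and then fell past the threshold. In week 8 it had 4.69, 5.20 and 6.17, a log2 fold change of -1.14 versus week 6 (SE 0.35, limma adjusted p = 0.011), where 2.67% of all transcript clusters were called lower. This was the single member called in week 8 versus 6, and without week 6 replicate 4 it was not called, since its log2 fold change was then -0.97. Myh7 differed by 0.76 in week 6 versus 3 (SE 0.29, limma adjusted p = 0.029), which was under the fold threshold.

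The later weeks did not bring all chains back to the level of week 1. In week 6 versus 1, 2 members were called lower, where 3.61% of all transcript clusters were: Myh1 (-2.07, SE 0.39) and Myh8 (-1.20, SE 0.37). Without week 6 replicate 3, 4 members were called, Myh2 lower (-1.11) and Myh13 higher (1.02) among them, whereas without week 1 replicate 2 Myh8 was at -0.92 and was not called. In week 8 versus 1, 3 members were called lower, where 4.8% of all transcript clusters were: Myh8 (-1.66, SE 0.37), Myh1 (-1.47, SE 0.39) and Myh2 (-1.11, SE 0.42).

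Myh1 had 9.23, 9.62 and 10.67 in week 8, so that 5 of the week 1 arrays lay above all week 8 arrays. Myh8 had 6.62, 7.16 and 7.61 in week 8, against 7.42, 8.78 and 10.21 in week 1. The call of Myh2 was the least stable, with an adjusted p of 0.056 in a limma fit of the 2 weeks alone and no call in 5 of the fits that left out 1 array. Those arrays were week 1 replicates 2 and 4 and week 8 replicates 4, 5 and 6. Myh4 was 0.73 above week 1 (SE 0.55) and Myh3 was -0.49 from it (SE 0.78), and neither was called. For these chains a difference from week 1 was not detectable at this spread.

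The order of the weeks also differed between members. The week means of Myh1, in time order, were 11.21, 6.41, 5.92, 9.14 and 9.74, and those of Myh2 were 10.81, 6.89, 6.11, 9.82 and 9.70. For Myh4 they were 10.31, 6.54, 6.31, 10.40 and 11.04, so its highest week was week 8. For Myh3 they were 9.37, 5.46, 4.93, 9.87 and 8.88, for Myh15 9.21, 5.40, 4.11, 9.49 and 8.31, and for both week 6 was highest. Week 3 was lowest for 7 of the 10 members, Myh1, Myh2, Myh3, Myh4, Myh7, Myh8 and Myh15, but in none of these was it called against week 2. Myh8 had 8.82, 6.01, 5.23, 7.61 and 7.16, and Myh13 had 5.42, 4.82, 4.85, 6.41 and 5.26. The highest week of Myh3, Myh4 and Myh15 was not called against the next in order. The slow chain Myh7 spanned 0.82 between its highest and lowest week, the cardiac chain Myh6 0.55 and Myh7b 0.29.

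A further comparison asked whether a heavy chain changed more or less than general sarcomere genes did on average. Each log2 value was taken relative to the mean of the 8 general sarcomere genes on the same array. On this scale nearly every gene outside muscle moves opposite to muscle, so that 97.8% of all transcript clusters were called higher and 0.0928% lower in week 2 versus 1. Relative to the sarcomere, Myh1 (-2.17, SE 0.39), Myh2 (-1.29, SE 0.39), Myh3 (-1.28, SE 0.40), Myh15 (-1.18, SE 0.41) and Myh4 (-1.14, SE 0.39) were called lower in week 2 versus 1. Myh8, at -0.18 (SE 0.39), was not. With each gene's own variance in place of the moderated one, Myh3 and Myh15 were not called there. The 8 reference genes themselves differed, from Ttn (-4.37) and Acta1 (-4.23) to Tcap (-1.01) in week 2 versus 1. Before the subtraction Myh2, Myh3, Myh15 and Myh4 had smaller changes than Ttn and Acta1. Their calls on this scale therefore depend on which genes were averaged.

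Relative to the sarcomere, 0.248% of all transcript clusters were called higher in week 6 versus 3. Myh15 (3.20, SE 0.41), Myh3 (2.76, SE 0.40), Myh4 (1.91, SE 0.39), Myh2 (1.53, SE 0.39) and Myh1 (1.03, SE 0.39) were among them. Before the subtraction the reference genes Ttn (4.70) and Neb (4.185) had larger changes than Myh4, Myh2 and Myh1. Of these 5 members, only Myh4 averaged above the median of all transcript clusters in week 3. Some of the general sarcomere genes were near that median too (Neb at 5.56, Ttn at 6.29 and Actn2 at 6.36 in week 3). How far the lower ends of the probes' ranges set these differences was not tested. Myh8 was at 0.20 (SE 0.39) and Myh13 at -0.63 (SE 0.39), neither called. Myh7, Myh6 and Myh7b, which were not called before the subtraction (0.76, -0.08 and 0.13), were called lower on this scale, as were 97.6% of all transcript clusters.

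**Figure D3:**
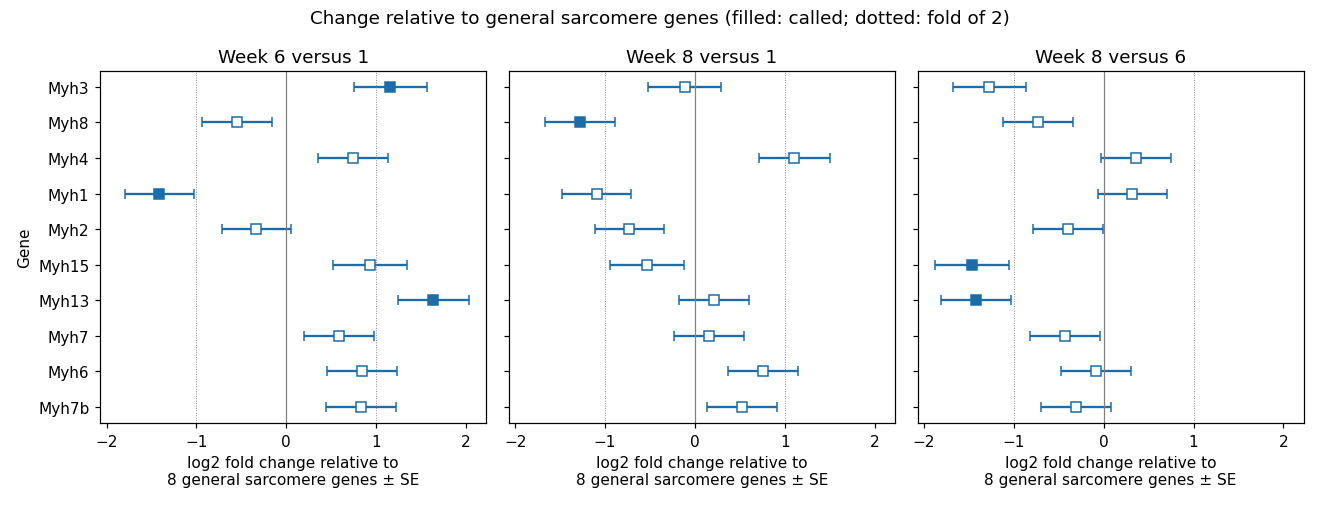
Log2 fold change relative to the mean of 8 general sarcomere genes, with its SE (horizontal axis), of each myosin heavy chain (vertical axis) for weeks 6 versus 1, 8 versus 1 and 8 versus 6; filled squares are called and dotted lines mark a fold of 2. Myh1 is called lower and Myh3 and Myh13 higher in the first comparison, Myh8 lower in the second, and Myh13 and Myh15 lower in the third.

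Against week 1, the chains kept different places relative to the sarcomere. In week 6 versus 1, Myh1 was lower (-1.41, SE 0.39, limma adjusted p = 0.0056), where 0.681% of all transcript clusters were. In the same comparison Myh13 (1.64, SE 0.39) and Myh3 (1.16, SE 0.40) were higher, where 26.6% of all transcript clusters were, so that these 2 calls are near the background. With each gene's own variance, Myh1 and Myh13 kept their calls and Myh3 did not. In week 8 versus 1, Myh8 was called lower (-1.28, SE 0.39, limma adjusted p = 0.028), where 1.04% of all transcript clusters were. Myh1 was at -1.10 (adjusted p = 0.078) and, with its own variance, was called (limma adjusted p = 0.0031). Myh4 was at 1.11 (limma adjusted p = 0.082). In week 8 versus 6, Myh15 (-1.46, SE 0.41) and Myh13 (-1.42, SE 0.39) were called lower, where 2.92% of all transcript clusters were, and with own variances only Myh13 was.

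The members also differed in how they varied between mice of the same age. Myh3 and Myh15, which lie on different chromosomes, had a Pearson r of 0.992 over the 30 arrays and of 0.996 after the week means were removed. These correlations are a description, since the points share their arrays and the weeks form separate clusters. For Myh3 and Myh4, both in the chromosome 11 cluster, r was 0.775 over the 30 arrays and 0.154 after the week means were removed. For Myh2 it was, after removal, 0.904 with Myh3 and 0.385 with Myh4. Week 2 replicate 6, low in Myh3 and Myh15, carried part of this: without it, r after removal was 0.372 for Myh3 and Myh4, 0.555 for Myh2 and Myh4, 0.895 for Myh2 and Myh3 and 0.995 for Myh3 and Myh15.

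The difference between Myh3 and Myh15 on an array averaged 0.16, 0.05, 0.82, 0.38 and 0.57 in weeks 1, 2, 3, 6 and 8, with SDs of at most 0.35. Its size depends on the probes, so only its variation with age can be read. Whether the probes of these genes detect RNA of the other was not tested.

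**Figure D4:**
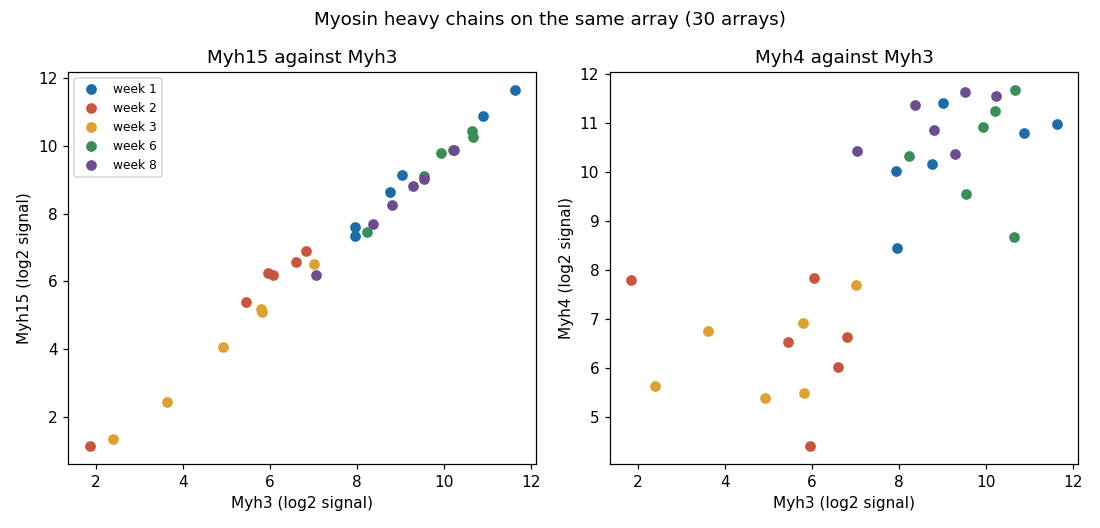
Log2 signals of Myh15 and of Myh4 (vertical axes) against that of Myh3 (horizontal axes) on the 30 arrays, coloured by week. Myh15 lies along 1 line with Myh3 through all weeks (r = 0.992), whereas the arrays of 1 week scatter for Myh4 (r = 0.154 after the week means were removed, and 0.372 without week 2 replicate 6).

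The 5 genes whose 30 values were most like those of Myh3, members aside, were Mylk4, Mybpc1, Mb, Smpx and Klhl41 (r between 0.937 and 0.958). Mybpc1 encodes slow myosin-binding protein C, and Mb encodes myoglobin. For Myh4 they were Tnnc2, Cmya5, Phkg1, Atp2a1 and Tnni2 (r between 0.950 and 0.960), of which Tnnc2 and Tnni2 are fast troponins and Atp2a1 is the calcium pump of fast fibres. For Myh7 they were Myl2, Tnnt1, Tnni1, Tnnc1 and Myl4 (r between 0.905 and 0.964), which include the slow light chain and the slow troponins. The nearest genes to Myh13, with 2310002L09Rik first, had an r of 0.797 or less.

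The other genes of the contractile apparatus were followed as lists, and in week 2 versus 1 those of fast fibres moved with the fast heavy chains. All 8 general sarcomere genes were called lower, with Ttn, titin, at -4.37 and Tcap, the titin cap, at -1.01 on the log2 scale. All 8 genes of the fast thin filament and of fast calcium handling were lower too, with Atp2a1 at -4.98 and Tpm1, a tropomyosin, at -1.35. Of the 12 partners of the thick filament 5 were lower, with the fast light chain Myl1 at -4.98 and Mylk2, the light chain kinase, at -1.29, and none was higher. Mybpc1, named slow myosin-binding protein C, was among the lower partners, at -3.76. Which fibres its signal came from was not tested. Of the 6 slow counterparts only Tnnc1 was called, at -1.23, and the median of the 6 was -0.40. In week 1 Tnni1 (6.81), Tnnt1 (6.89) and Casq2 (6.925) were already near the median of all transcript clusters (6.23). Atp2a2 (10.43) and Tpm3 (10.6) were far above it, and they were still at 10.16 and 10.45 in week 2. In bulk tissue the cells that gave the signals of Atp2a2 and Tpm3 are not known, so these signals need not come from slow muscle. How these levels bear on the contrast with the fast list was not tested.

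Between weeks 3 and 6, 6 of the 8 general sarcomere genes were called higher, with Ttn at 4.70 and Myom1, a protein of the M-band, at 1.05. Of the fast list 7 of 8 were higher, with Tnnc2 at 4.09 and Actn3, the actinin of fast fibres, at 1.77, and Tpm1 was at 0.10. Of the thick filament partners 4 of 12 were higher, with Mybpc1 at 3.84 and Mybpc2, fast myosin-binding protein C, at 1.38. Of the slow list none was called in either direction. In week 6 versus 1, where 3.61% of all transcript clusters were called lower, 4 of the 8 fast genes were, between Pvalb (-2.02) and Actn3 (-1.21). Of the 8 general sarcomere genes Acta1 was lower there (-1.96), and of the 12 partners Myl1 (-1.75) and Mylpf (-1.42). The lower signal of Myh1 in week 6 was thus shared by some genes of these lists, and none of the slow list was called. In week 8 versus 1 none of the general sarcomere and none of the slow list was called, whereas Casq1, calsequestrin of fast fibres, was lower by 1.21 in the fast list, and Myl1 (-1.61) and Mybpc1 (-1.13) were lower among the thick filament partners.

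Of 14 measured genes of developing muscle, 5 were lower in week 2 versus 1, with the adhesion molecule Ncam1 at -2.86 and Chrnb1, the acetylcholine receptor beta subunit, at -1.01. In week 6 versus 3 the cardiac actin Actc1 (2.18) and the myogenic factor Myf6 (1.96) were higher, and the growth factor Igf2 was lower (-1.18). The fetal receptor subunit Chrng was at 0.30 there and was not called. In week 8 versus 1, 3 of the 14 were lower, Igf2 (-2.33), Ncam1 (-1.72) and Myf6 (-1.07). Of 7 genes that fold, assemble or degrade myosin, 4 were lower in week 2 versus 1, between the assembly factor Smyd1 (-1.62) and the ubiquitin ligase Trim63 (-1.06), and Smyd1 (1.43) and Trim55 (1.26) were higher in week 6 versus 3.

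The heavy chains of nonmuscle and smooth muscle cells each took their own course. Of these 4 genes, the nonmuscle chain Myh14 was higher in week 2 versus 1 (1.68, SE 0.22) and Myh10 lower (-1.17, SE 0.11), while Myh9 was at 0.39 and the smooth muscle chain Myh11 at 0.37, not called. In week 6 versus 3 Myh11 was lower (-1.35, SE 0.37), whereas Myh14 (-0.26), Myh9 (-0.58) and Myh10 (0.52, SE 0.11, limma adjusted p = 0.00032) were not called. All week 6 arrays lay above all week 3 arrays for Myh10, as for 18.9% of all transcript clusters, and below them for Myh9 and Myh11. The changes of Myh10 in these comparisons, though smaller, had the direction of the fast chains. Those of Myh9, Myh11 and Myh14 had the opposite direction in both. Myh14 was also higher in week 8 versus 1 (1.79, SE 0.22). Myh6, Myh7 and Myh7b host microRNAs in their introns, named Mir208a, Mir208b and Mir499. The array's transcript clusters for Mir208a (0.98) and Mir499 (0.25) were not called in week 2 versus 1, and these probes do not measure the mature microRNA.

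Signals of other tissues moved between the same ages. In week 2 versus 1 all 7 measured photoreceptor genes were lower, with a list mean between 4.91 and 6.84 on the week 2 arrays, against 7.83 and 10.94 on the week 1 arrays. Of 6 genes of the retinal pigment epithelium 5 were lower, with list means of 4.92 to 6.95 in week 2, against 7.78 to 9.58 in week 1. All 7 measured genes of surface epithelium were higher, with 11.12 to 11.92 in week 2, against 8.44 to 10.60 in week 1. Of the 10 genes of scleral fibroblasts 6 were lower, with 8.81 to 10.19 in week 2, against 10.25 to 11.02 in week 1.

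For week 6 versus 3 the photoreceptor list had 1 gene lower and none higher, with list means of 6.29 to 7.75 in week 6, against 6.48 to 8.02 in week 3. The pigment epithelium list had 3 of 6 higher, with 7.63 to 9.12 in week 6, against 6.87 to 7.79 in week 3. Of surface epithelium 1 gene was higher and 3 lower, with 10.74 to 11.30 in week 6, against 9.93 to 12.03 in week 3, and of the fibroblast list 1 was lower, with 9.16 to 10.53 in week 6, against 9.92 to 10.95 in week 3. Of the lens genes 3 of 6 were lower in week 2 versus 1 and none was called in week 6 versus 3. Of nerve and myelin genes 1 of 3 measured was lower in the earlier and 2 in the later comparison. Of smooth muscle genes only Des, which is also a sarcomere gene, moved with the heavy chains, and 3 of 6 were lower in week 6 versus 3. The scale has no true zero, so no marker can be called absent. The part of these signals in the course of the heavy chains was not tested.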

How the data were processed

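RNA of 30 single mouse sclerae was measured on 30 arrays. The authors deposited log2 signals for 35556 transcript clusters. Robust multiarray averaging followed by a batch removal on scan date is given in the methods, while the submitters' processing notes list GCRMA and Partek 6.5. The normalization is therefore not settled, nor is whether the values precede the batch removal. No further scaling was applied.

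The fit (limma 3.58.1, R 4.3.3) covered all clusters, gave each week a mean and moderated the variances. Promoters came from RefSeq (GRCm38.p6). The genes named were all 10 members, the largest and smallest called changes of each muscle list, the 5 genes most like Myh3, Myh4, Myh7 and Myh13, and genes on which a sentence turned, Myh9, Chrng and Col1a1 being chosen after their values were seen. The members and lists were chosen with earlier results of these data known. Same-numbered arrays held different mice, and the number did not pair them. Alternatives were other sets of clusters, array weights, other scalings, a fit of 2 weeks, a replicate block, a variance trend, an array spread covariate, no fold threshold and leaving out each array. Own variances for each gene, terms for 3 arrays and correlations without week 2 replicate 6 were chosen after seeing the data.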

Additional observations from a re-analysis of the deposited data

Results flagged for a closer look

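In 6 of the 50 sets of 6 arrays (a member in a week), 1 array stood apart from the rest. The measure is the gap to the nearest array as a share of the set's range, above the critical value of Dixon's test, and chance alone flags about 1 set in 20. In week 1, replicate 6 was lowest for Myh1 (gap share 0.744, log2 signal 9.62, next array 11.17). The other 5 were all week 2 replicate 6, again as the lowest array: Myh2 (0.642, at 5.49), Myh3 (0.726, at 1.85), Myh7 (0.705, at 5.26), Myh7b (0.642, at 5.86) and Myh15 (0.742, at 1.14). Week 2 replicate 4 equals its week mean, so it is not a measurement of its own. Without it, the gap shares over the other 5 arrays were 0.703, 0.825, 0.753, 0.643 and 0.877 for these genes. Against the higher critical value for 5 arrays, Myh3, Myh7 and Myh15 still stood apart and Myh2 and Myh7b did not. The measure does not flag 2 arrays that stand apart together. In week 1, replicates 2 and 4 were the highest arrays for Myh3 (11.64 and 10.89, next 9.02) and Myh15 (11.66 and 10.89, next 9.15). They were so for Myh7 (7.79 and 7.56, next 6.16) and Myh13 (6.92 and 6.44, next 5.08) as well, but not for Myh1 and Myh4. Their weight in the week 1 results was not tested as a pair.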

How the results depend on the processing

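Of the 19 calls of single members in the 6 comparisons, none changed direction under any alternative run. The call was kept in 186 of 188 refits under other settings and in 563 of 570 refits without 1 array. The 570 include refits without an array of a week outside the comparison, which keep the fold change and alter only the variance. All 7 lost calls came from leaving out an array of a compared week, so the ratio overstates how stable the calls are. Leaving out 1 array gave 6 calls in week 2 versus 1, 0 to 3 in week 3 versus 2 (3 without week 2 replicate 6), 7 in week 6 versus 3, 0 to 1 in week 8 versus 6 (0 without week 6 replicate 4) and 2 to 4 in week 6 versus 1 (4 without week 6 replicate 3). The range was 2 to 3 for week 8 versus 1. With array quality weights 1 member, Myh15, was called in week 3 versus 2. In the clusters above the median signal, which leave out Myh6 and Myh13, 0 were called in week 8 versus 6. In week 6 versus 1, 1 member was called, lower, with a covariate for the interquartile range of the array. With no fold threshold 4 were called, 1 higher and 3 lower. Relative to the sarcomere, each gene's own variance gave 1 call in week 8 versus 6 and 2 in week 8 versus 1. Subtracting Myh4 instead gave 4 for week 2 versus 1, all higher (Myh6, Myh7, Myh7b and Myh13), so that no member was called lower there. It gave 2 for week 8 versus 1, Myh1 and Myh8, both lower, and 0 for both week 8 versus 6 and week 6 versus 1. In week 6 versus 3 Myh15 (1.29) was then higher, and Myh6, Myh7, Myh7b, Myh8 and Myh13 were lower. Myh1 (-0.87), Myh2 (-0.38) and Myh3 (0.85) were not called there. The cause of these changes was not tested. The shares of all transcript clusters called under these alternative settings are not given here.

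A replicate block kept every count: 6, 0, 7, 1, 2 and 3 calls in week 2 versus 1, 3 versus 2, 6 versus 3, 8 versus 6, 6 versus 1 and 8 versus 1. Arrays of 1 number did not deviate together (median r 0.010 over 60 pairs, 13 above 0.1), and 7 of 30 arrays were closest to their own number.

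Sign changes concerned uncalled differences only. With the interquartile range covariate they were 0.63 (Myh3), 0.0895 (Myh6), 0.0189 (Myh7), 0.20 (Myh7b) and 0.00599 (Myh15) in week 3 versus 2, then -0.25 (Myh3), -0.0607 (Myh6), -0.12 (Myh7b) and -0.57 (Myh15) in week 6 versus 1, and for Myh7b -0.10 (week 2 versus 1), -0.22 (week 6 versus 3), 0.0625 (week 8 versus 6) and -0.0528 (week 8 versus 1). Myh7b in week 8 versus 6 was at 0.0522 with median centring and 0.0617 with quantile normalization, and Myh13 in week 3 versus 2 at -0.13 with array weights. Without 1 array, the ranges that crossed 0 were -0.29 to 0.12 for Myh2 and -0.11 to 0.0255 for Myh7b in week 8 versus 6, -0.66 to 0.0259 for Myh4 and -0.17 to 0.14 for Myh13 in week 3 versus 2, -0.28 to 0.43 for Myh4, -0.24 to 0.19 for Myh7 and -0.10 to 0.77 for Myh15 in week 6 versus 1, and -0.39 to 0.0309 for Myh7 and -0.34 to 0.14 for Myh13 in week 8 versus 1. The mean over several transcript clusters of a gene was not run, since each member has 1. The number of arrays limits the precision, and so does low signal: 9 of the 10 members in week 3 and 6 in week 2 averaged below the median of all clusters.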
